A study of Canis lupus familiaris with 51 samples.

Results

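Mast cell tumors (MCTs) of the canine skin are graded on histology. The study's undifferentiated reference MCTs had a high Kiupel grade and a high mitotic index. Of the 51 MCTs on the arrays, 12 belonged to the undifferentiated class, and they had entered it by different routes. The 5 undifferentiated reference samples (T9, T57, T73, T90 and LM0) were chosen on histology (Patnaik grade 2 or 3, Kiupel high grade), with the mitotic index as part of that choice. The 7 predicted undifferentiated samples (T132, T115, T114, T104, T80, T77 and T49) were tumors of the remaining set that a nearest shrunken centroid classifier, trained on the reference samples, placed in this class from 13 marker transcripts measured on the same arrays. On the grading of that set the pathologists had not agreed. The study counted 7 Kiupel high-grade tumors among all 51, the 5 reference samples included. Most predicted undifferentiated samples were therefore of low Kiupel grade, so that grade largely went with the route of entry. The other 39 tumors were 13 differentiated reference samples and 26 predicted differentiated samples. The comparison asked whether tumors placed in the undifferentiated class by their expression profile differed, across the transcriptome, from those placed there by the microscope.

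Every sample was the central part of 1 spontaneous tumor, taken at surgery and kept in RNAlater, and was hybridized to 1 single-color Agilent canine array, so that mast cells, stroma and any adjacent skin were measured together. The reference dogs were 3 males and 2 females aged 5 to 13 years (median 10), namely a Cocker Spaniel, 2 Crossbred dogs, a Labrador Retriever and a Shar-pei. The predicted dogs were 4 males and 2 females aged 6 to 14 years (median 9.5), with no sex, age or breed given for T132, and included 2 Boxers, a Labrador Retriever, a Bouvier des Flandres, an English Setter and a Crossbred dog. The labels give no treatment or genotype of the dogs. Between 62.2% and 72.9% of the probes were well above background on the 12 arrays. Of the 31 genes listed as mast cell markers 19 were measured, and 18 of these were well above background on all 12 arrays.

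Mitosis is run by groups of proteins that act in turn. The transcription factor FOXM1 switches on the genes of the late cell cycle, the condensins compact the chromosomes, the NDC80 complex ties them to the spindle, and CDC20 activates the anaphase-promoting complex, which then destroys cyclin B and lets the cell divide. Mast cells are blood-derived cells that depend on the receptor KIT and store proteases such as chymase and cathepsin G in their granules. In tumors of the skin they lie among fibroblasts, vessels, immune cells and epidermis.

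Levels below are log2 intensities of 1 probe, quantile-normalized over the 51 arrays, and differences are reference minus predicted on that scale, so that 1 unit is a 2-fold difference. CDC20, RHOH and GPRC5A are described below, CDC20 only as a description because it was a marker of the class prediction. Their 60-base probes are printed because a level on this array is the signal of exactly these letters. They lie on canine chr15:19815570-19815629 (CDC20), chr3:75102412-75102471 (RHOH) and chr27:36461696-36461755 (GPRC5A), all on the minus strand as the array files give it, in a genome build that the files do not name.
CDC20: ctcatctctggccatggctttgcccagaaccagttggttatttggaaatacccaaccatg
RHOH: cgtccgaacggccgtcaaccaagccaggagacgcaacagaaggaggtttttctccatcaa
GPRC5A: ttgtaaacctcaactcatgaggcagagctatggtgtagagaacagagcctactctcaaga

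In the fit on the 12 arrays no probe passed correction for multiple testing. With limma, 0 of 43603 probes (0%) reached a Benjamini-Hochberg adjusted p under 0.05 with a fold of at least 2, and the smallest adjusted p was 0.373. At an unadjusted p under 0.05 there were 3048 probes (6.99%), 1760 higher and 1288 lower in the reference samples. The median standard error of a difference was 0.30, and for 23476 probes (53.8%) the 95% confidence interval lay inside a 2-fold difference in either direction. For the remaining probes the interval reached past 2-fold. These counts cover all 43603 probes, of which 30685 passed a filter on dim signal. A narrow interval of a probe near the floor says little about a difference. The p-values measure only the spread between these tumors. When all 51 arrays in 4 groups shared the estimate of the spread, an alternative to this fit, 57 of 43603 probes (0.131%) passed the same threshold, 41 higher and 16 lower in the reference samples. They included RHOH (limma adjusted p = 0.0495 in that fit), CEL (0.0175), DDX20 (0.0444) and SPC25 (0.0478) among the higher, and SBF2 (0.0329), UST (0.0196) and ENDOD1 (0.0383) among the lower.

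Taken gene by gene with 1 probe each, 479 of 11281 genes (4.25%) were higher and 443 (3.93%) lower in the reference samples at an unadjusted p under 0.05. In 23 genes (0.204%) every reference sample lay above every predicted sample, and in 12 (0.106%) every reference sample lay below. These shares are the background for the gene lists described below, none of which had a member past the adjusted threshold in the fit on the 12 arrays. The adjusted p in limma on the 12 arrays was 0.711 for each gene named below at an unadjusted p under 0.05 in this comparison unless another value is given.

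Mitosis genes were mostly higher in the reference samples. Their list is given without 6 genes that were markers of the class prediction, whose levels placed the predicted samples in the class. A high mitotic index was also part of the choice of the reference samples. Higher mitosis genes in them are therefore not independent of how the groups were formed, and the shares are given as a description. Of the 47 remaining measured genes 43 were higher and 4 lower in the reference samples, with a median difference of 0.59 against 0.03 over all genes. At an unadjusted p under 0.05, 19 (40.4%) were higher against 4.25% of all genes, and none was lower. The groups did not overlap for 3 of them (NCAPG, NCAPD2 and NDC80, or 6.38%), against 0.204% of all genes.

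By tumor, the mean of these mitosis genes stood at 2.13 in T9, 2.04 in T57, 1.67 in T73, 1.93 in T90 and 2.60 in LM0, in log2 units above the mean of the differentiated reference samples. In the predicted undifferentiated samples it ran from 1.14 in T77 through a median of 1.58 to 1.92 in T114. The groups overlapped through T73, which lay below T114, T49 and T115. Both groups stood above all 26 predicted differentiated samples, which ran from -0.62 to 1.0. The predicted classes were set by marker transcripts on the same arrays, several of them mitosis genes. This separation is therefore not independent of the grouping.

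Several of these genes act on the chromosomes and the spindle. NCAPG, a condensin subunit, measured 9.71 in T9, 8.96 in T57, 8.98 in T73, 10.48 in T90 and 9.60 in LM0, against 7.27 to 8.83 (median 8.34) in the predicted samples. All 5 reference samples therefore lay above all 7 predicted ones, with a difference of 1.27 ± 0.32 (standard error; limma unadjusted p = 0.00195). NCAPD2, another condensin subunit, measured 10.50, 10.30, 10.17, 10.31 and 10.96 in T9, T57, T73, T90 and LM0, and 9.56 to 10.15 (median 9.93) in the predicted samples. Its groups were separate by a narrow margin at T73, with a difference of 0.59 ± 0.17 (limma unadjusted p = 0.00419).

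NDC80, the kinetochore protein that grips microtubules, measured 9.97, 9.63, 9.54, 9.67 and 10.72 in the same order, against 8.65 to 9.41 (median 9.28). The groups did not overlap, and the difference was 0.78 ± 0.23 (limma unadjusted p = 0.00483). DLGAP5, a spindle protein, measured 9.38, 9.51, 9.20, 9.88 and 10.55, against 7.79 to 9.30 (median 8.57), so that only T73 fell within the predicted range. Its difference was 1.14 ± 0.28 (limma unadjusted p = 0.0017).

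TTK, a kinase of the spindle checkpoint, measured 9.53 in T9, 8.78 in T57, 8.62 in T73, 8.80 in T90 and 9.35 in LM0, against 7.66 to 8.69 (median 8.19). T73 alone was within the predicted range, and the difference was 0.82 ± 0.21 (limma unadjusted p = 0.00257). CDCA2, a protein of mitotic chromosomes, measured 10.88, 10.10, 10.07, 10.87 and 11.51, against 9.02 to 10.13 (median 9.75). T57 and T73 lay within the predicted range, and the difference was 1.04 ± 0.28 (limma unadjusted p = 0.00312).

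SPC25, another subunit of the NDC80 complex, measured 12.59 in T9, 10.35 in T57, 11.98 in T73, 11.11 in T90 and 12.46 in LM0, against 9.50 to 10.99 (median 10.39). T57 alone was within the predicted range, and the difference was 1.36 ± 0.39 (limma unadjusted p = 0.00471). The genes lower in the reference samples were UBE2C, ECT2, CENPE and NCAPG2. UBE2C, the ubiquitin-conjugating enzyme that works with the anaphase-promoting complex, had the largest of these differences, -1.18, and none of the 4 reached an unadjusted p under 0.05.

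**Figure D1:**
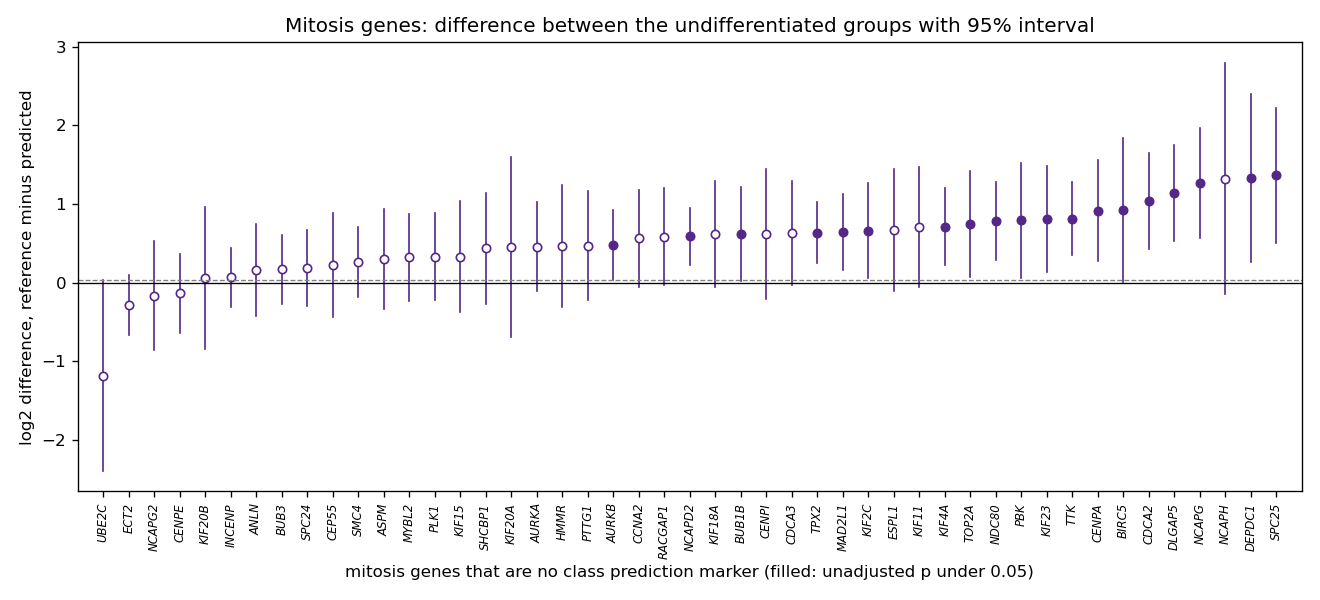
Difference in log2 level (reference minus predicted, vertical axis) for each of the 47 measured mitosis genes that were no class prediction marker, ordered by size, with 95% confidence intervals from limma. Filled circles are genes at an unadjusted p under 0.05, and the dashed line is the median of all genes (0.03). Of the 47 points 43 lie above 0, from KIF20B upward, and UBE2C is the lowest.

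The count of mitosis genes moved with single tumors and with the scan session. Of the 47 genes, 19 were higher at an unadjusted p under 0.05, 12 without LM0, and 10 with the scan session as a block. The median stayed between 0.41 and 0.68 when any of the 12 tumors was left out. The 12 arrays were scanned in 7 sessions, and 2 of these held both groups. In the first (T9 against T49), 36 of the 47 genes were higher in the reference sample, and in the second (T73 against T77 and T80) 37 were.

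The class prediction markers are given as a description only, since their levels placed the 7 tumors in the class. Of 12 measured markers 11 had a higher mean in the reference samples. CDC20, whose probe is printed above, measured 10.08 in T9, 9.45 in T57, 9.66 in T73, 10.14 in T90 and 10.03 in LM0. It measured 8.04 to 9.08 (median 8.77) in the predicted samples and 5.51 to 8.21 in the differentiated reference samples, so that the predicted undifferentiated samples lay between the others and touched the upper end of the differentiated ones.

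FOXM1 measured 9.55, 9.61, 9.80, 10.22 and 10.20 in the reference samples in that order, against 8.40 to 9.42 (median 8.94) in the predicted ones. Its groups did not overlap on this probe but did on the second FOXM1 probe, where the difference was 0.74. For CDC20 and FOXM1 the differences were 1.19 and 0.94. The differences of other markers were smaller, at 0.74 for NUF2, 0.54 for CCNB2 (cyclin B2), 0.46 for KPNA2, 0.35 for CENPP, 0.26 for UBE2S, 0.16 for PRC1, 0.06 for CDCA8 and 0.01 for FEN1. GSN (gelsolin), an actin-severing protein and a marker that is low in undifferentiated tumors, was lower still in the reference samples, by a difference of -0.90.

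The genes of DNA replication, which act in the phase before, leaned the same way by less. Of 35 measured G1/S and replication genes, the marker FEN1 left out, 31 were higher in the reference samples, with a median difference of 0.33. At an unadjusted p under 0.05, 3 (8.57%) were higher, against 4.25% of all genes. As for the mitosis genes, this is not independent of how the groups were formed and is given as a description. CDC45, part of the replicative helicase, measured 8.71, 7.78, 7.94, 8.06 and 8.79 in T9, T57, T73, T90 and LM0, against 6.68 to 8.05 (median 7.11). T57 and T73 lay inside the predicted range and T90 at its edge, and the difference was 0.87 ± 0.31 (limma unadjusted p = 0.0159). POLE, the leading-strand polymerase, differed by 0.55 ± 0.22 and CDT1, which loads the helicase, by 0.51 ± 0.23. Without T9 the median of the list was 0.22. The mean of the list differed by 0.74 in the scan session of T9 and T49. In the session of T73, T77 and T80 it differed by -0.11, and POLE had the opposite sign there as well (-0.11).

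Outside the lists, the genes with the smallest p included a regulator of blood cell signaling and several enzymes. RHOH, a GTPase-like protein of haematopoietic cells that takes part in antigen receptor signaling, measured 11.69 in T9, 12.38 in T57, 11.17 in T73, 11.76 in T90 and 12.41 in LM0. It measured 8.45 to 10.77 (median 10.19) in the predicted samples. The reference samples lay above all predicted samples and above all 13 differentiated reference samples (8.76 to 11.12), and the difference from the predicted samples was 1.86 ± 0.38 (95% interval 1.04 to 2.68; limma unadjusted p = 0.00037).

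GSTZ1, an enzyme of tyrosine breakdown, measured 7.46, 6.76, 7.33, 7.51 and 7.92, against 5.59 to 6.74 (median 6.40), with a difference of 1.14 ± 0.23 (limma unadjusted p = 0.000423). T57 was the lowest reference sample and stood just above the highest predicted one. CEL, the carboxyl ester lipase, measured 5.93, 5.87, 5.48, 6.35 and 5.53, against 2.30 to 5.09 (median 4.09), with a difference of 1.83 ± 0.41 (limma unadjusted p = 0.000798). It was well above background on all 5 reference arrays and on 3 of 7 predicted arrays, and 2 of the 3 other CEL probes gave the same sign.

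Of the remaining genes with the smallest p in this direction, ACRBP (difference 1.03) and ARHGEF39 (1.40) did not overlap between the groups. DDX20, an RNA helicase (1.10), CXCL10, an interferon-induced chemokine (1.32), HOXB7, a homeobox factor (1.25), and LAMA1, a laminin chain (3.07), overlapped. LAMA1 had the widest spread, with 11.67 in T9, 10.57 in T90, 10.11 in LM0, 9.16 in T73 and 7.26 in T57, against 5.25 to 8.55 (median 6.81). T57 alone was inside the predicted range.

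**Figure D2:**
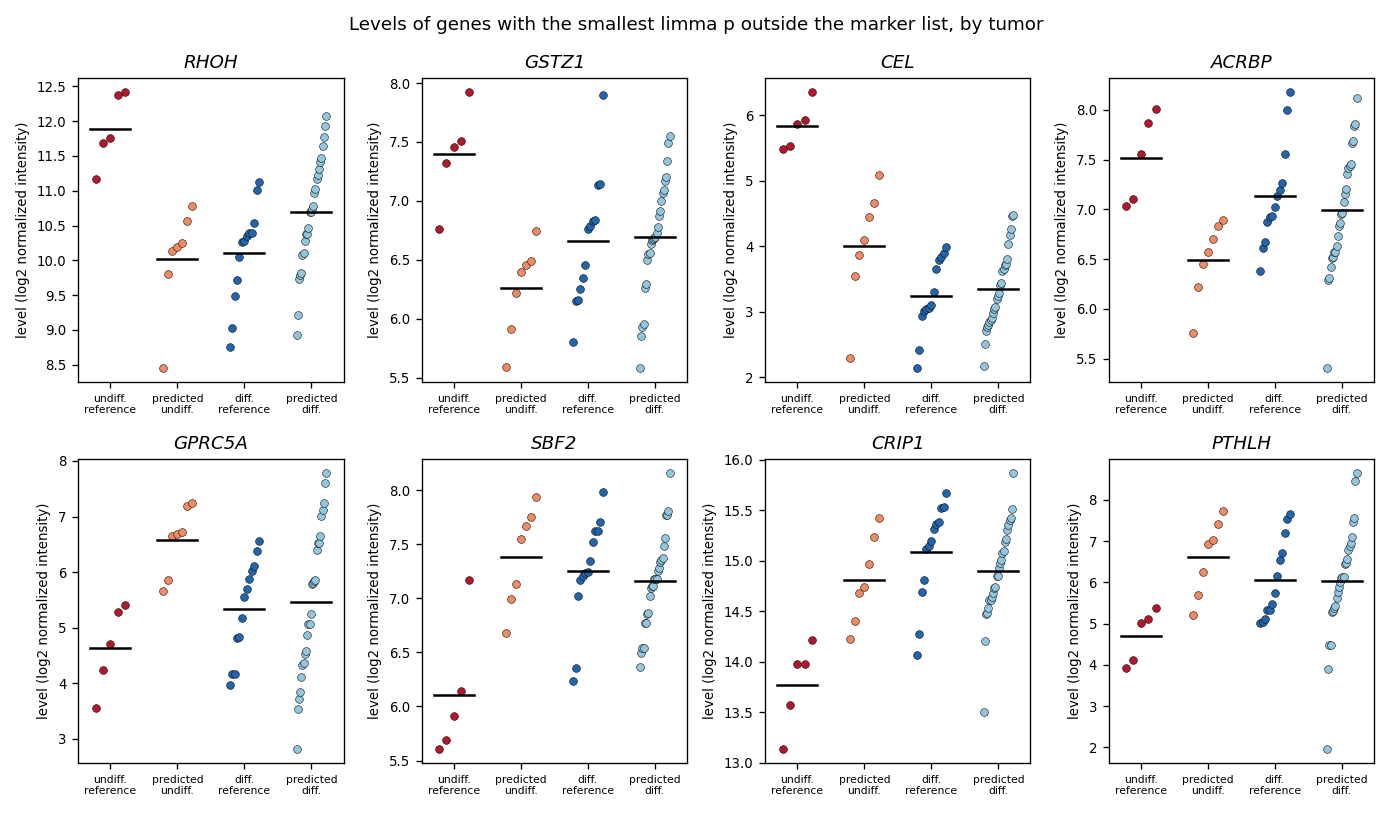
Level of 8 genes by tumor (vertical axis, log2 normalized intensity; each panel has its own range that does not start at 0) in the 4 groups of the series; points are tumors and bars are group means. The upper row shows the 4 genes higher in the undifferentiated reference samples with the smallest limma p outside the marker list, the lower row 4 lower genes chosen likewise. The reference and predicted undifferentiated points do not overlap for RHOH, GSTZ1, CEL, ACRBP, GPRC5A and CRIP1, and 1 reference sample lies among the predicted ones for SBF2 and PTHLH.

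Among genes lower in the reference samples, GPRC5A, an orphan receptor induced by retinoic acid, measured 3.56 in T9, 5.42 in T57, 4.23 in T73, 4.70 in T90 and 5.28 in LM0. In the predicted samples it measured 5.67 to 7.25 (median 6.69). The groups did not overlap, with a difference of -1.94 ± 0.37 (95% interval -2.76 to -1.12; limma unadjusted p = 0.000256). The differentiated reference samples, from 3.97 to 6.56, covered the range between them.

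CRIP1, a small LIM-domain protein, measured 13.13, 14.21, 13.98, 13.98 and 13.57, against 14.23 to 15.43 (median 14.74). The groups were separate, with T57 next to the lowest predicted sample, and the difference was -1.04 ± 0.25 (limma unadjusted p = 0.00131). PTHLH, the parathyroid hormone-related protein, measured 4.12, 5.39, 5.11, 3.93 and 5.01, against 5.22 to 7.72 (median 6.92), with a difference of -1.89 ± 0.45 (limma unadjusted p = 0.00135). Only T57 lay in the predicted range, and PTHLH was well above background on 3 of 5 reference arrays.

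The other lower genes with the smallest p overlapped between the groups. They were SBF2 (-1.28), KCNIP2, a potassium channel subunit (-1.08), ENDOD1 (-1.15), LIPA, the lysosomal acid lipase (-1.10), ALCAM, an adhesion molecule (-1.30), and UST, a sulfotransferase of dermatan and chondroitin sulfate (-1.24). In SBF2 the overlap came from T57, at 7.17 against 5.60 to 6.15 in the other reference samples.

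**Figure D3:**
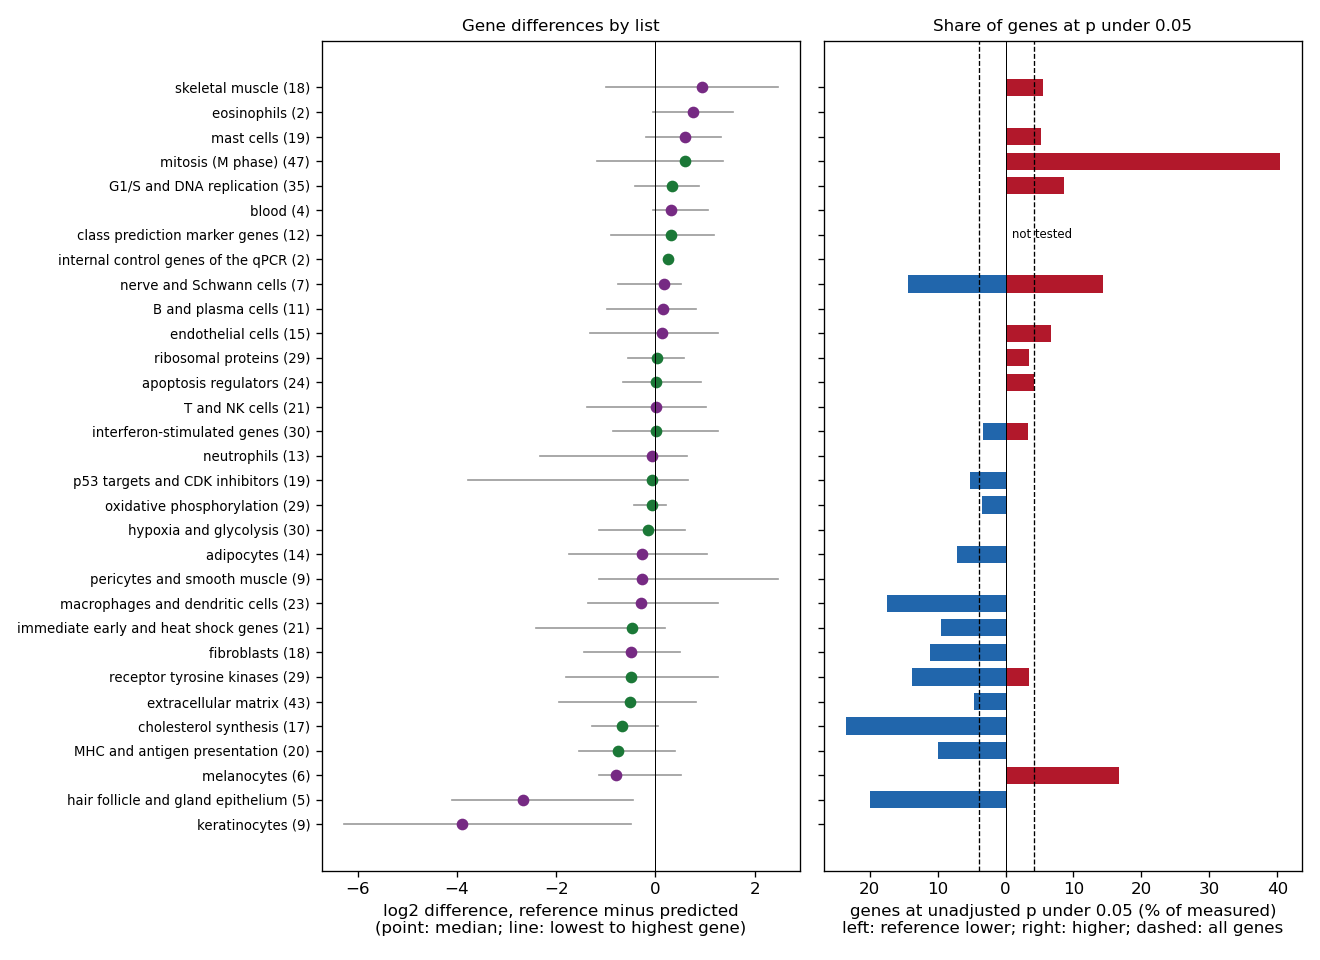
Left, differences (reference minus predicted, log2) for each of the 31 gene lists, with the number of measured genes in parentheses; points are medians, lines run from the lowest to the highest gene, green marks pathway lists and purple cell type lists. Right, the percentage of each list at an unadjusted p under 0.05, to the left of 0 where lower and to the right where higher in the reference samples, with dashed lines at the shares of all genes (3.93% and 4.25%). The marker list was not tested and has no bar. Among the lists with bars the mitosis list, markers left out, has the longest (40.4% of 47 genes), and the keratinocyte list has the lowest median (-3.89) with no gene at that threshold.

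Several lists had most of their members lower in the reference samples. Of 20 measured genes of MHC and antigen presentation only 1 was higher, the median difference was -0.75, and 2 (10%) were lower at an unadjusted p under 0.05 against 3.93% of all genes. CD74, the chaperone of class II molecules, measured 12.18 in T9, 13.47 in T57, 13.07 in T73, 12.41 in T90 and 10.08 in LM0, against 12.56 to 14.92 (median 14.19). LM0 stood far below the others and the groups overlapped, with a difference of -1.45 ± 0.61 (limma unadjusted p = 0.0362). DLA-DRA, the class II alpha chain, gave -1.34 ± 0.59. The list as a whole stood at -2.33 in LM0 and -0.72 to -0.23 in the other reference samples, and without LM0 its median was -0.43 and the count fell from 2 to 0.

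Cholesterol synthesis had 17 measured genes, 1 higher, with a median of -0.66. Of these, 4 (23.5%) were lower at the unadjusted threshold, against 3.93% of all genes. INSIG1, the sterol sensor that restrains the pathway, measured 8.44, 9.12, 7.90, 7.66 and 9.52, against 8.23 to 11.47 (median 9.87), with a difference of -1.28 ± 0.51 (limma unadjusted p = 0.0285). The groups overlapped, with T73 and T90 below all predicted samples. PMVK, a kinase of the mevalonate route, differed by -0.66 ± 0.20, ACAT2 by -0.70 ± 0.29, and HSD17B7 by -0.99 ± 0.44 (limma adjusted p = 0.713). Without T77, which had the highest list level (1.88 above the differentiated reference mean), the median was -0.38 and the count 2. In the session of T9 and T49, INSIG1, ACAT2 and HSD17B7 had the opposite sign.

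Of 29 receptor tyrosine kinases 6 were higher, and the median was -0.50. At the unadjusted threshold 4 (13.8%) were lower and 1 (3.45%) higher, against 3.93% and 4.25% of all genes. The higher one was TEK, an endothelial receptor (limma adjusted p = 0.713), which was well above background on 1 of 5 reference arrays and on no predicted array, so that no fold is given. The lower ones were NTRK2 (-1.43), the collagen receptor DDR2 (-1.29), EGFR (-1.35) and CSF1R (-1.34), the receptor of the macrophage growth factor. EGFR measured 7.88, 8.84, 7.81, 8.34 and 7.48, against 7.40 to 11.11 (median 9.44), and all reference samples lay within the predicted range. KIT, named here after its values were seen because it is the driver receptor of mast cells, measured 13.68 in T9, 11.00 in T57, 13.25 in T73, 15.03 in T90 and 13.78 in LM0. It measured 9.11 to 14.78 (median 12.20) in the predicted samples, and the difference of 1.15 had an interval from -0.90 to 3.20 (limma adjusted p = 0.769).

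Of 43 extracellular matrix genes 7 were higher, with a median of -0.51 and 2 (4.65%) lower at the unadjusted threshold, close to the 3.93% of all genes. POSTN (periostin), a matrix protein of activated fibroblasts, measured 11.73, 12.15, 11.23, 10.99 and 10.29, against 11.42 to 13.84 (median 12.67), with a difference of -1.44 ± 0.43 (limma unadjusted p = 0.00578). T9 and T57 lay in the predicted range and the others below it. COL1A2, a chain of collagen I, differed by -0.77 ± 0.31. The fibroblast list, which shares members with it, had 2 of 18 genes higher and a median of -0.49. The matrix median was -0.23 without T9 and -0.95 without T57, which stood at -2.24 and 0.77 on the list level. Immediate early and heat shock genes had 2 of 21 higher and a median of -0.48, which was -0.11 without T9. KLF4 (-1.22) and NR4A2 (-2.40) were lower at the unadjusted threshold, or 9.52% against 3.93% of all genes.

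Mast cell genes leaned toward the reference samples. Of 19 measured, 18 were higher with a median of 0.60, and 1 (5.26%) at an unadjusted p under 0.05, near the 4.25% of all genes. That gene, CTSG (cathepsin G), measured 5.88 in T9, 5.39 in T57, 5.50 in T73, 5.74 in T90 and 6.24 in LM0, against 3.76 to 5.67 (median 4.40). T57 and T73 lay within the predicted range, and the difference was 1.31 ± 0.32 (limma unadjusted p = 0.00171). CTSG was well above background on all 5 reference arrays but on only 4 of 7 predicted arrays, so the difference rests partly on levels near the background. CMA1, the chymase, differed by 0.85 ± 0.56 and GATA1, a factor of the mast cell lineage, by 0.98 ± 0.59. The median was 0.37 without T73 and 0.38 without T114. Macrophage and dendritic cell genes had 8 of 23 higher and a median of -0.29. At the unadjusted threshold 4 (17.4%) were lower, against 3.93% of all genes, and none was higher. Among the lower were CD209 (-1.35), a lectin of these cells, and CD83 (-1.12; limma adjusted p = 0.713). The highest was FCGR1A (1.25; limma adjusted p = 0.748). The mean of the list differed by -1.07 in the scan session of T9 and T49. In the session of T73, T77 and T80 it differed by 0.12. In tissue samples, fewer cells of a type and less RNA per cell cannot be told apart.

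**Figure D4:**
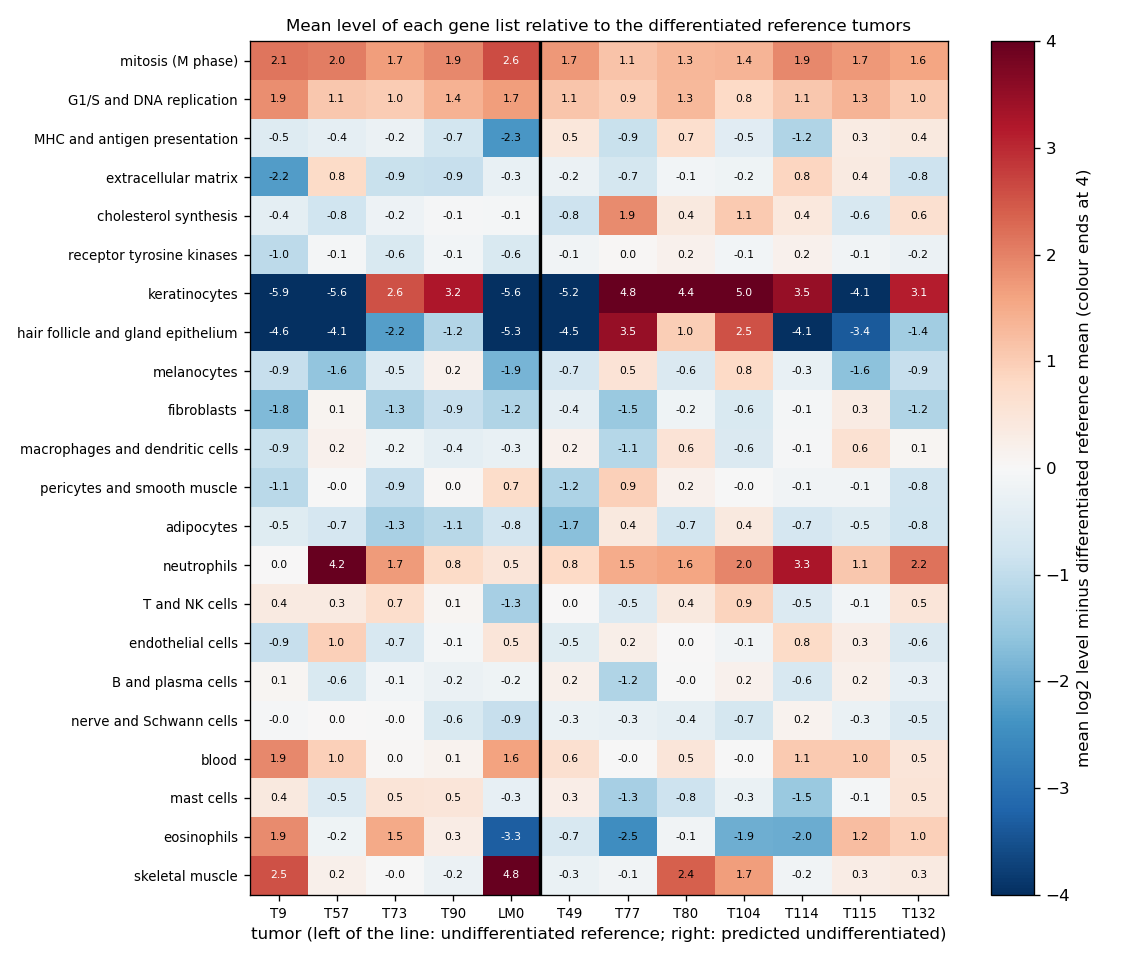
Mean level of each gene list in each of the 12 tumors (columns; the line separates 5 reference from 7 predicted samples), in log2 units relative to the mean of the differentiated reference samples; the colour scale ends at 4 and each cell holds its value. The mitosis row is positive throughout, the keratinocyte row splits the tumors in both groups, and T57 (neutrophils, 4.17) and LM0 (skeletal muscle, 4.84) stand out in single rows.

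Epidermal and muscle transcripts differed between tumors by many log2 units, in a way that did not follow the groups completely. Of 9 measured keratinocyte genes 0 were higher in the reference samples, and the median difference was -3.89 with no gene at an unadjusted p under 0.05. KRT5, the basal layer keratin, measured 1.80 in T9, 3.67 in T57 and 1.66 in LM0, near the floor of the array, but 16.05 in T73 and 15.97 in T90, and was well above background on 2 of 5 reference and 6 of 7 predicted arrays. The keratinocyte list was low in T9, T57 and LM0 (-5.95 to -5.57) and in the predicted samples T49 (-5.22) and T115 (-4.05), and high in the remaining 7 tumors (2.56 to 5.00).

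KRT18, a keratin of simple and glandular epithelium, did not overlap between the groups. It measured 11.12, 11.43, 11.57, 11.73 and 10.10 in the reference samples, against 11.83 to 15.35 (median 13.07), with a difference of -2.29 ± 0.63 (limma unadjusted p = 0.00346). All 5 measured genes of hair follicle and gland epithelium had a negative difference, including KRT19 (-4.10; limma adjusted p = 0.734) and PIP (-3.38; limma adjusted p = 0.767), a secreted protein of sweat glands. For GPRC5A, the predicted samples low in keratinocyte genes measured 6.72 (T49) and 6.69 (T115), and the reference samples high in them 4.23 (T73) and 4.70 (T90). For PTHLH the same tumors measured 6.24, 5.22, 5.11 and 3.93. The part of epithelium in these and the other lower genes was not tested.

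Skeletal muscle genes were higher in 16 of 18 cases with a median of 0.94, which fell to 0.04 without LM0. The list stood at 4.84 in LM0 and 2.54 in T9, at 2.39 in T80 and 1.68 in T104 of the predicted samples, and at -0.27 to 0.35 in the remaining 8. MYH2, a myosin of fast fibres, was at 11.57 in T9 and 11.32 in LM0 but at 1.68 to 1.75 in the other reference samples (limma adjusted p = 0.912). The neutrophil list, with a median difference of -0.06, was highest in T57 (4.17). T57 lay in the predicted range for SPC25, LAMA1, PTHLH, SBF2 and MYOZ1. T73, with a neutrophil level of 1.70, was the reference sample in that range for DLGAP5, TTK and SNCG. A relation of these genes to the neutrophil level was not tested.

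Because reference and predicted samples existed in both classes, the difference could be set against that between 13 differentiated reference and 26 predicted differentiated samples. This difference of differences, fitted with limma over all 51 arrays, passed the threshold in 34 of 43603 probes (0.078%), 24 above and 10 below 0. Of them 15 had a gene symbol, and 12 were well above background on fewer than 7 of the 12 undifferentiated arrays. A probe of the class prediction marker GSN was among the 34. The reference samples were chosen partly on the mitotic index, low in the differentiated and high in the undifferentiated class. The predicted samples were placed by markers on the same arrays. This contrast is therefore not independent of how the groups were formed, and its calls are given as a description. The count of 34 ran from 7 without T80 to 940 without T57, so that single tumors set it. With T9, T77, T104, T115 or LM0 left out it was 10, 10, 12, 15 and 8, and with T49, T73 or T90 left out 85, 53 and 63. With the scan session as a block it was 6, and after scaling to the 75th percentile it was 16.

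RHOH was among these genes, with a difference of differences of 2.45 ± 0.51 (limma adjusted p = 0.037). In the predicted differentiated samples it ran from 8.92 to 12.07, against 8.76 to 11.12 in the differentiated reference samples. CEL gave 1.94 ± 0.42 (limma adjusted p = 0.040), and was well above background on 0 of 13 differentiated reference arrays. Of the mitosis list only SPC25 passed, at 1.75 (limma adjusted p = 0.037).

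FBXO43, an inhibitor of the anaphase-promoting complex in germ cells, measured 6.72 in T9, 3.01 in T57, 5.61 in T73, 5.65 in T90 and 4.76 in LM0. It was well above background on 3 of 5 reference arrays and on no predicted undifferentiated array (2.02 to 4.17). Its level is only a bound on the other arrays, so that no fold is given. Its difference of differences passed the threshold (limma adjusted p = 0.031), but that fit used the levels not well above background as measured. BOLL, an RNA-binding protein of germ cells, measured 5.54, 2.03, 5.18, 3.84 and 3.61. It was well above background on 2 of 5 reference arrays and on no predicted array, so that no fold is given. The same limit holds for its difference of differences (limma adjusted p = 0.006). T57 was the lowest reference sample for both genes.

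MYOZ1, a protein of the muscle Z-disc, had the largest value, 3.38 ± 0.74 (limma adjusted p = 0.042). It measured 8.45 in T9, 5.37 in T57, 8.24 in T73, 7.07 in T90 and 9.66 in LM0, against 3.26 to 6.04 (median 5.40) in the predicted samples. T9 and LM0, the highest, were also the reference samples highest in the muscle list, while T73 stood at 8.24 with a muscle list level near 0, and T57 lay in the predicted range.

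Below 0 stood SNCG, gamma-synuclein (-2.37 ± 0.51; limma adjusted p = 0.039), ENDOD1 (-1.39 ± 0.30; limma adjusted p = 0.040), UST (-1.39 ± 0.29), CD99, a surface glycoprotein (-1.31 ± 0.27), and CAPN2, a calpain protease (-1.19 ± 0.25; limma adjusted p = 0.039). SNCG measured 14.23, 13.26, 14.93, 14.28 and 12.28 in the reference samples against 14.32 to 17.63 (median 16.02), and only T73 reached the predicted range. CD99 measured 11.56, 12.01, 12.92, 12.05 and 11.49 against 12.38 to 13.53 (median 12.85), and 13.37 to 14.27 in the differentiated reference samples. In CD99 the predicted undifferentiated samples thus lay mostly between the 2 sets of reference samples.

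**Figure D5:**
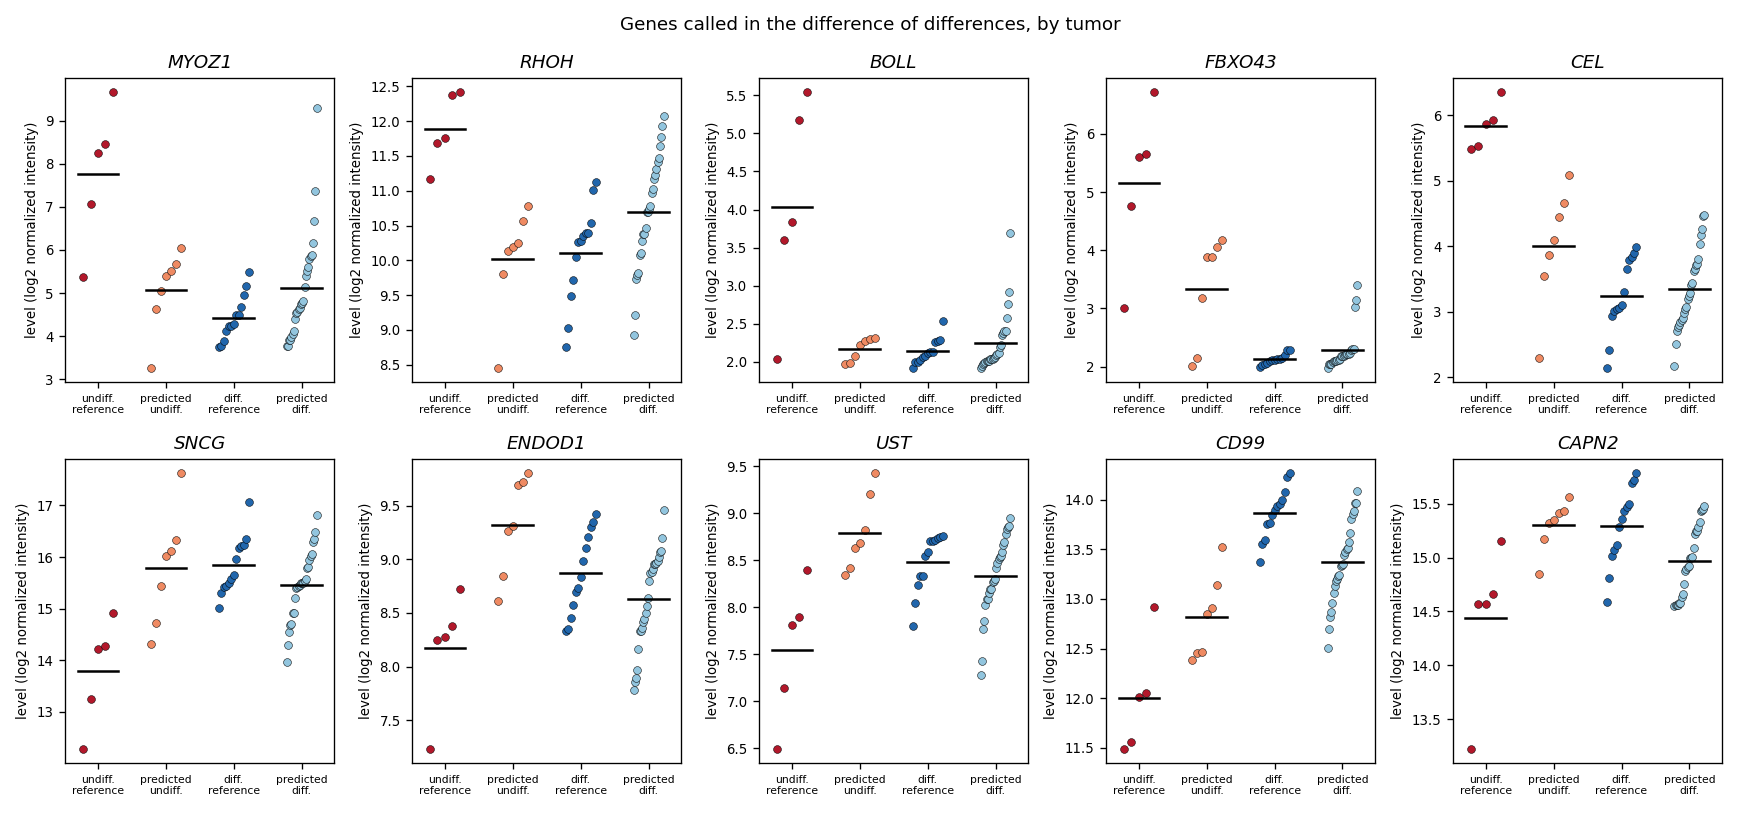
Level by tumor (log2 normalized intensity, each panel with its own range that does not start at 0) of the 10 genes named from the difference of differences, in the 4 groups; points are tumors and bars group means. Upper row, values above 0, in which the undifferentiated reference mean is the highest of the 4 means; lower row, values below 0, in which it is the lowest.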

How the data were processed

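The 51 MCTs were analysed as 4 groups. Reference samples and predicted classes were taken from the study's description by tumor number. LM0 was matched to the remaining undifferentiated reference sample by elimination. The members, gene lists and tests were chosen with earlier results of these data known.

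The authors labeled single tumors in 1 color, scanned each slide at high and low sensitivity, and extracted the deposited intensity values with Agilent Feature Extraction 9.5.1.1, which subtracts the background and detrends within the array. The deposited processed intensities were log2 transformed here and quantile-normalized over the 51 arrays, without control spots and without 2 to 35 spots per array flagged as outliers, and the spots of a probe were averaged (43603 probes). The authors' own series of normalized intensity (42861 probes) served as an alternative. Depth does not apply to arrays, whose number limits the precision.

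A symbol was matched to 18619 probes through the files' names and a RefSeq list of genes (assembly UU_Cfam_GSD_1.0), giving 11281 genes, each represented in the 31 lists by its brightest probe on average. Marker genes of the class prediction were left out of the other lists, a choice made after seeing the data. A few genes are not reported here. Probe coordinates are those of the array files, whose build is not given in the sources used here.

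Differences were tested with limma 3.58.1 in R 4.3.3 (lmFit, eBayes, two-sided, with statmod 1.5.0 for the slide block), Benjamini-Hochberg adjusted over all probes, on the 12 arrays. The difference of differences used all 51. Calls required a 2-fold difference and an adjusted p below 0.05, and intervals are at 95%. The scripts were tested on simulated data. Probes not well above background in a group have only a bound there.

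Named genes were, in each direction, the 10 with the smallest p, a difference of at least 1 and a signal above background in over 50% of the arrays of a group, up to 4 genes of each list by p, the markers without a test, and up to 5 called genes in each direction of the difference of differences. NCAPD2, NDC80, SPC25, the 4 lower mitosis genes, KIF20B, KIT, FCGR1A, MYH2 and S100A9 were named after their values were seen. The 12 arrays lay on 10 slides, 1 of which held both groups, and in 7 scan sessions, 2 of which held both groups (5 arrays). Scan session, slide, sex, age, normalization, background correction, filters, thresholds and each tumor left out were tried as alternatives.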

Additional observations from a re-analysis of the deposited data

Results flagged for a closer look

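Within a group, the most extreme tumor was compared with the spread of the others (Dixon's test). Of 212 groups of values, 8 (3.77%) had a tumor past the 95% limit, where chance gives about 5%. Among the predicted samples these were RHOH in T77 (8.45, the next 9.80), KCNIP2 in T114 (5.44), KLF4 in T77 (11.47, above the others), the antigen-presenting CD1A6 in T80 (11.25, above the others), and the markers GSN in T114 (16.21) and KPNA2 in T77 (11.96). Among the reference samples they were ALCAM in T90 (7.58, above the others) and the antigen presentation list in LM0 (-2.33).

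The limma test of the difference of differences over 51 arrays called 15 probes with a gene symbol, of which 10 genes are named here. For these the estimated reference-minus-predicted difference was not the same in undifferentiated as in differentiated tumors. The number of calls depended on single tumors and on the scan session, and the contrast is not independent of how the groups were formed. The values were 3.38 for MYOZ1, 2.45 for RHOH, 1.98 for BOLL, 1.96 for FBXO43 and 1.94 for CEL, and -2.37 for SNCG, -1.39 for ENDOD1, -1.39 for UST, -1.31 for CD99 and -1.19 for CAPN2. BOLL and FBXO43 were not well above background on any predicted undifferentiated array, so their values rest on levels that are only bounds. CEL was well above background on 3 of 7 predicted undifferentiated arrays and on no differentiated reference array, so its value rests partly on such levels.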

How the results depend on the processing

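The count of 0 probes held under each other normalization, background correction, filter, block and covariate tried on the 12 arrays, with the smallest adjusted p between 0.122 and 0.80. It also held with a t-test after adjustment, where the smallest adjusted p was 0.0246 in 1 probe that missed the 2-fold limit. The count was 57 (41 higher, 16 lower) when all 51 arrays shared the spread. By a t-test at a fold of 2 and an unadjusted p under 0.05, a limit chosen here, it was 824. The study had used SAM with an enforced false discovery rate, which these t-tests do not repeat. With each tumor left out in turn it was 0 to 1, the 1 being without T57. Probes at an unadjusted p under 0.05 numbered 2233 without T9 and 5494 without T57, against 3048.

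The difference of differences, 34 probes, gave 16 with 75th percentile scaling, 4 at an adjusted p under 0.01, 6 with the scan session as a block, and 7 to 940 with a tumor left out. The mitosis count of 19 was 10 with the session block and 12 (without LM0) to 24 (without T114) with a tumor left out, and 23 with the marker genes kept in the list. S100A9, a neutrophil gene, ran from -1.98 to 0.40 with a tumor left out against -1.25, and reversed without T9. Among 2086 values of named genes under alternatives it was the 1 reversal, and 38 passed the threshold only there. Causes were not tested, apart from thresholds and fewer samples by construction. Background-flagged spots, spots not found, within-session values, the mitosis and replication counts with and without markers, and the session block, the 51-array fit and the authors' values for lists were alternatives chosen after seeing the data. No paired analysis was possible because the replicate numbers only follow the order of accession and pair no tumors. The number of arrays and dim probes limit the precision.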

Other observations

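Other gene lists gave the following median differences (log2, reference minus predicted), against 0.03 over all genes. The median was -0.07 over 19 p53 targets and CDK inhibitors, where DDB2, a DNA damage sensor, was lower at an unadjusted p under 0.05. It was -0.15 over 30 hypoxia and glycolysis genes, -0.07 over 29 oxidative phosphorylation genes, 0.01 over 30 interferon-stimulated genes, 0.04 over 29 ribosomal protein genes and 0.02 over 24 apoptosis regulators. Among cell types it was 0.14 over 15 endothelial genes, 0.02 over 21 T and NK cell genes, 0.16 over 11 B and plasma cell genes, 0.16 over 7 nerve and Schwann cell genes, 0.31 over 4 blood genes and 0.76 over 2 eosinophil genes. It was -0.28 over 9 genes of pericytes and smooth muscle, -0.27 over 14 adipocyte genes and -0.79 over 6 melanocyte genes. The 2 measured internal control genes of the qPCR, HPRT1 and TMBIM4, differed by 0.18 and 0.33.

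The profiles of the 12 tumors were compared as a description by Pearson's r over all probes of a pair of arrays, which are not independent. It was 0.928 to 0.971 (median 0.939) among the reference samples, 0.918 to 0.977 (median 0.959) among the predicted samples, and 0.907 to 0.974 (median 0.948) between them.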
